A study of Mus musculus with 10 samples.

Results

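The arrays of the siFbxw7 group were set directly against those of the siSox17 group, 2 arrays against 2, which are 4 of the 10 Affymetrix arrays of the series. The members were all 18194 genes that had a probe set with a single gene symbol, each read through its brightest probe set. All arrays come from NG4, an embryonic stem cell line of the mouse. The cells took up siRNA as they were plated, differentiated in retinoic acid, and gave RNA 48 h after transfection. One group carried siRNA against Fbxw7 and the other siRNA against Sox17; the medium, the time and the line were the same in both. No siRNA sequence, number of siRNAs per gene or protein level of a target is given in the sources used here. Nothing says that the replicates are separate cultures, so the p-values reflect only how far these arrays differ, which may be technical. The 2 arrays of the siNonTarget group, which carried an siRNA without a target, are given beside some results as a reference level.

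FBXW7 is the subunit of an SCF ubiquitin ligase that binds phosphorylated proteins such as MYC, cyclin E, JUN and Notch and marks them for the proteasome. It acts on proteins, so an array would show its loss only through later changes in transcripts. SOX17 is a transcription factor of the endoderm, and in mouse embryonic stem cells it works with GATA4, GATA6 and SOX7 in the programme of the extraembryonic endoderm, the lineage that forms the yolk sac lining and secretes basement membrane. Retinoic acid drives embryonic stem cells away from pluripotency, chiefly toward neural fates, and also toward extraembryonic endoderm.

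The 4 arrays did not fall apart by group. Across the 18194 genes, 208 differed at least 2-fold between the siFbxw7 replicates and 40 between the siSox17 replicates. The array siFbxw7 replicate 2 differed at least 2-fold from siSox17 replicate 2 at 10 genes and from siSox17 replicate 1 at 73, fewer than from its own replicate. The array siFbxw7 replicate 1 differed from the siSox17 arrays at 360 and 240 genes. Between the 3′ and 5′ control probe sets of actin, whose gap widens as RNA is degraded, the log2 difference was 0.60 on siFbxw7 replicate 1 and between 0.21 and 0.26 on the other 3 arrays. On the siNonTarget arrays it was 0.50 and 0.25, and the deviations of same-numbered siNonTarget and siFbxw7 arrays from their group means correlated at 0.42 across genes, which are not independent replicates. Its part in the results was not tested beyond a fit with this difference as a covariate and fits without each array. Median intensities of all 10 arrays lay between 46.39 and 47.95. As markers of the labelled cell type, Pou5f1, Nanog, Sox2 and Zfp42 lay between the percentiles 92.1 and 98.5 of all genes on each of the 4 arrays. Of fibroblast feeder markers, Postn and Thy1 lay between the percentiles 11.8 and 26.1, Col3a1 and Col1a1 between 27.9 and 47.1, and Col1a2 between 65.2 and 79.7, so these markers were not uniformly dim.

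No gene passed the test between siFbxw7 and siSox17 (limma over all 5 groups, Benjamini-Hochberg adjusted p under 0.05): 0 of 18194, or 0%. The smallest adjusted p was 0.765. An unadjusted p under 0.05 was reached by 1017 genes (5.59%), 471 higher in siFbxw7 (2.59%) and 546 lower (3.0%), where 910 in all would fall under that threshold if no gene differed. The count of 1017 was 509 without siFbxw7 replicate 1, 2350 without siFbxw7 replicate 2 and 467 without siSox17 replicate 1. Both siFbxw7 arrays lay above both siSox17 arrays for 3462 genes (19.0%) and below them for 3037 (16.7%). With 2 arrays a group, the smallest p of a two-sided exact permutation test is 0.333, so no single gene can be tested that way. Every difference below is siFbxw7 minus siSox17 on the log2 scale with its standard error (n = 2 arrays per group), every level is a log2 intensity, given for replicates 1 and 2 in that order, and every gene named missed the adjusted threshold. Where a gene is called higher or lower, that is the position of the estimate or the arrays.

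**Figure D1:**
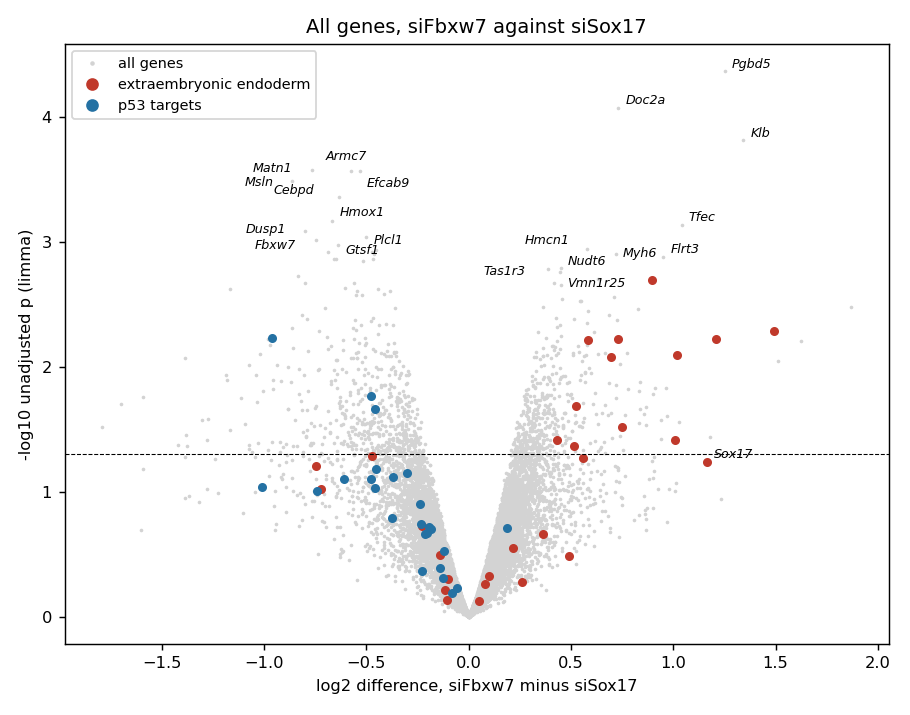
Log2 difference, siFbxw7 minus siSox17 (x axis), against −log10 of the unadjusted limma p-value (y axis) for all genes (grey), with extraembryonic endoderm genes in red, p53 targets in blue and a dashed line at the unadjusted threshold of 0.05. Of 29 extraembryonic endoderm genes, 12 lie above the line on the right and 0 on the left, and 24 of 25 p53 targets lie left of 0.

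Each targeted transcript had its lower mean in its own group, Fbxw7 without overlap and Sox17 with it. Fbxw7 read 9.04 and 9.28 in siFbxw7 and 9.92 and 9.89 in siSox17. The groups did not overlap, and the difference was −0.75 ± 0.15 (95% interval −1.10 to −0.40, unadjusted p = 0.000963), or 1.68-fold more in siSox17. The other Fbxw7 probe set, in a fit of every probe set alone, read 8.91 and 8.86 against 10.16 and 10.01, a difference of −1.20 ± 0.29. The siNonTarget arrays, at 9.27 and 9.55 on the first probe set, overlapped the siFbxw7 arrays and lay below both siSox17 arrays. On the other probe set they read 9.47 and 9.29, above both siFbxw7 arrays and below both siSox17 arrays. On that probe set siRnf31 replicate 2 read 8.84, below both siFbxw7 arrays. The array siRnf31 replicate 1 read 9.85 there, and the siSocs3 arrays 9.08 and 9.62. A level that low was thus not confined to the siFbxw7 group.

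Sox17 read 6.32 and 7.50 in siSox17 and 7.28 and 8.87 in siFbxw7. The groups overlapped, since siFbxw7 replicate 1 lay below siSox17 replicate 2. The difference was 1.16 ± 0.53 (95% interval −0.044 to 2.37, unadjusted p = 0.0572). It was 0.37 without siFbxw7 replicate 2, the array with the highest Sox17 level of the 4, and 1.96 without siFbxw7 replicate 1. Without siSox17 replicate 1 it was 0.57, and without siSox17 replicate 2 it was 1.75. The second Sox17 probe set gave 0.84 ± 0.38, with 6.73 and 8.16 in siFbxw7 and 6.38 and 6.83 in siSox17. The siNonTarget arrays read 6.37 and 7.39, as low as the siSox17 arrays. Sox17 levels thus do not check the label siSox17, and every direction below rests on the labels. Socs3 (−0.051 ± 0.24) and Rnf31 (0.042 ± 0.17), targeted in other groups, differed by less than their standard error.

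**Figure D2:**
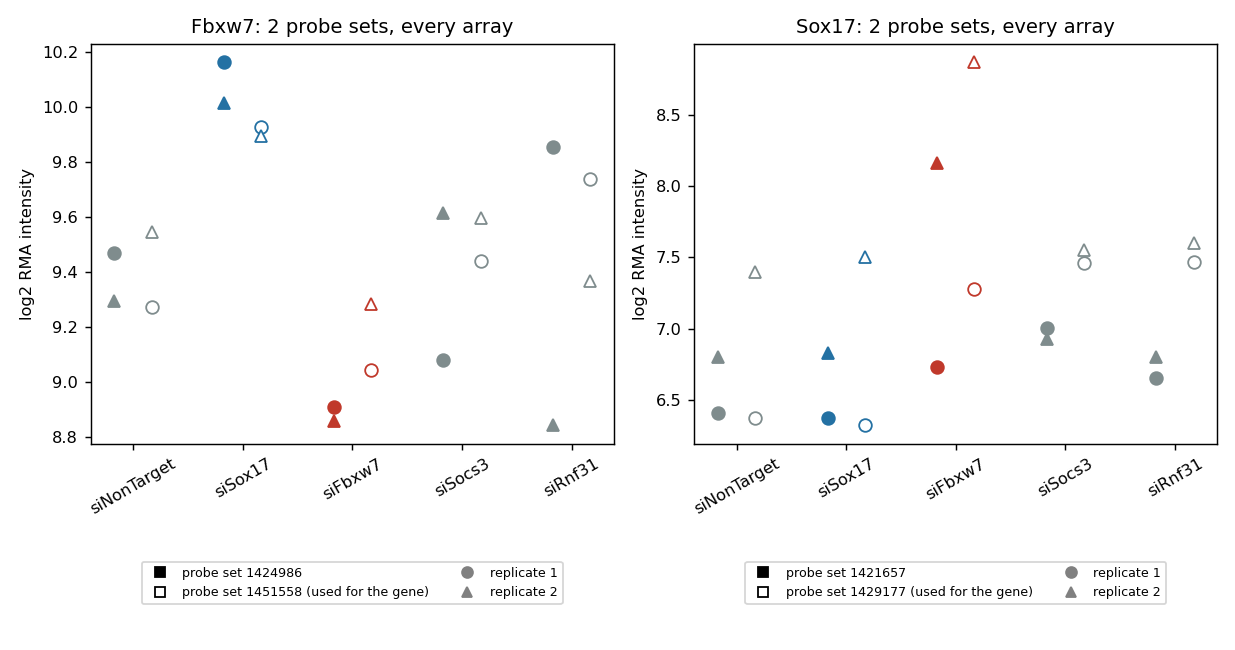
Log2 intensity (y axis) of both probe sets of Fbxw7 and of Sox17 on every array, by siRNA group (x axis), with circles for replicate 1 and triangles for replicate 2. All Fbxw7 values of siFbxw7 lie below those of siSox17 for each probe set, while Sox17 is highest on siFbxw7 replicate 2.

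Genes of the extraembryonic endoderm stood higher in siFbxw7 than in siSox17. Of 29 members measured, 12 (41.4%) had an unadjusted p under 0.05 with a higher estimate and 0 with a lower one, beside 2.59% and 3.0% of all genes, and 0 passed the adjusted threshold. Their median difference was 0.43, beside 0.012 for all genes, and 0.40 when Sox17 itself was left out. The arrays did not overlap at 15 members that were higher in siFbxw7 (51.7%, beside 19.0% of all genes) and at 4 that were lower (13.8%, beside 16.7%). The count of 12 was 14 without siFbxw7 replicate 1, and 14 with the actin difference as a covariate. It was 7, with 3 lower, without siFbxw7 replicate 2, and 6 without siSox17 replicate 1. The median lay between 0.30 and 0.43 with each array left out or none. In these bulk samples, fewer cells of a type and less RNA per cell cannot be told apart.

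Among the transcription regulators of that lineage, 5 of 9 had an unadjusted p under 0.05. Foxq1, a forkhead factor, read 8.24 and 8.60 in siFbxw7 and 7.23 and 7.82 in siSox17, a difference of 0.89 ± 0.21 (1.86-fold, unadjusted p = 0.002). Foxa2, a pioneer factor of all endoderm, read 8.76 and 8.78 against 7.91 and 8.17, a difference of 0.73 ± 0.20. Sox7, the closest relative of Sox17 in this lineage, read 7.76 and 8.62 against 6.66 and 7.71 (1.01 ± 0.42). For these 3 genes both siFbxw7 arrays lay above both siSox17 arrays, although Sox7 on siSox17 replicate 2 came within a few hundredths of siFbxw7 replicate 1. Gata4 (0.75 ± 0.29) had arrays that did not overlap, at 5.84 and 6.69 against 5.25 and 5.79. Gata6, which initiates the lineage, read 9.37 and 10.001 against 8.92 and 9.42 (0.51 ± 0.22), and its arrays overlapped. The regulators Hnf4a (0.098 ± 0.13) and Snai1 (−0.11 ± 0.22) differed by less than their standard error, and Cited1 was lower at −0.72 ± 0.39.

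Of the 6 basement membrane and matrix genes, 4 had an unadjusted p under 0.05, all higher in siFbxw7. Lama1, the laminin chain that this lineage lays down, read 9.74 and 9.81 in siFbxw7 and 8.23 and 8.90 in siSox17. Its difference was 1.21 ± 0.34 (2.31-fold, unadjusted p = 0.00601). The partner chain Lamb1 gave 0.43 ± 0.18, while Lamc1 gave 0.051 ± 0.16, less than its standard error. The type IV collagen genes Col4a1 and Col4a2, which neighbour each other and are read from opposite strands, gave 0.70 ± 0.21 and 0.58 ± 0.16. Col4a1 read 10.96 and 11.61 against 10.40 and 10.78, and Col4a2 9.17 and 9.72 against 8.82 and 8.91, in both cases with the highest value on siFbxw7 replicate 2. Sparc, a secreted matrix protein that binds collagen IV, went the other way at −0.47 ± 0.21, with 11.54 and 12.24 against 12.42 and 12.30.

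Of the 4 endocytosis genes 2 had an unadjusted p under 0.05, and of the 3 surface receptors 1. Cubn, a receptor with which visceral endoderm takes up protein, read 6.10 and 7.22 in siFbxw7 and 4.77 and 5.55 in siSox17, a difference of 1.49 ± 0.41 (2.82-fold, unadjusted p = 0.00517). Its membrane anchor Amn gave 0.36 ± 0.28, with overlapping arrays, and the co-receptor Lrp2 gave −0.10 ± 0.30. Dab2, the adaptor that links these receptors to clathrin, gave 0.53 ± 0.19. Pdgfra, the PDGF receptor that marks primitive endoderm, read 7.72 and 8.65 against 6.87 and 7.48 (1.02 ± 0.30), and its highest value was again on siFbxw7 replicate 2. The 7 secreted products of the list had 0 members with an unadjusted p under 0.05. They ran from −0.74 (Fst, a follistatin) to 0.56 (Plat, tissue plasminogen activator), and the yolk sac products Afp (−0.10 ± 0.14), Apoa1 (−0.14 ± 0.13) and Ttr (0.26 ± 0.40) gave small differences beside their errors.

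The siNonTarget arrays gave a reference level for these genes. Of the 12 members, both siFbxw7 arrays lay above both siNonTarget arrays at 7 (Foxq1, Cubn, Lama1, Col4a1, Col4a2, Pdgfra and Gata6), and both siSox17 arrays lay below them at 1 (Foxa2). At 4 members neither held. Over all 471 genes with an unadjusted p under 0.05 that were higher in siFbxw7, these counts were 153, 350 and 21, with some genes in both of the first. Markers of fibroblasts, which share collagen and matrix genes with this lineage, leaned to the other side. Their median difference was −0.13, and 17 of 22 estimates were below 0. The 1 member with an unadjusted p under 0.05, Col6a2, was higher in siFbxw7. Their summed intensity was 10849 and 13615 in siFbxw7 and 20989 and 15048 in siSox17. On the siNonTarget arrays it was 10207 and 17363, a range that held both siFbxw7 arrays and siSox17 replicate 2. The summed intensity of the extraembryonic endoderm list was 15039 and 20311 against 15196 and 15323, so by this sum siFbxw7 replicate 2 alone stood apart. The part of the fibroblast markers in these differences was not tested.

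**Figure D3:**
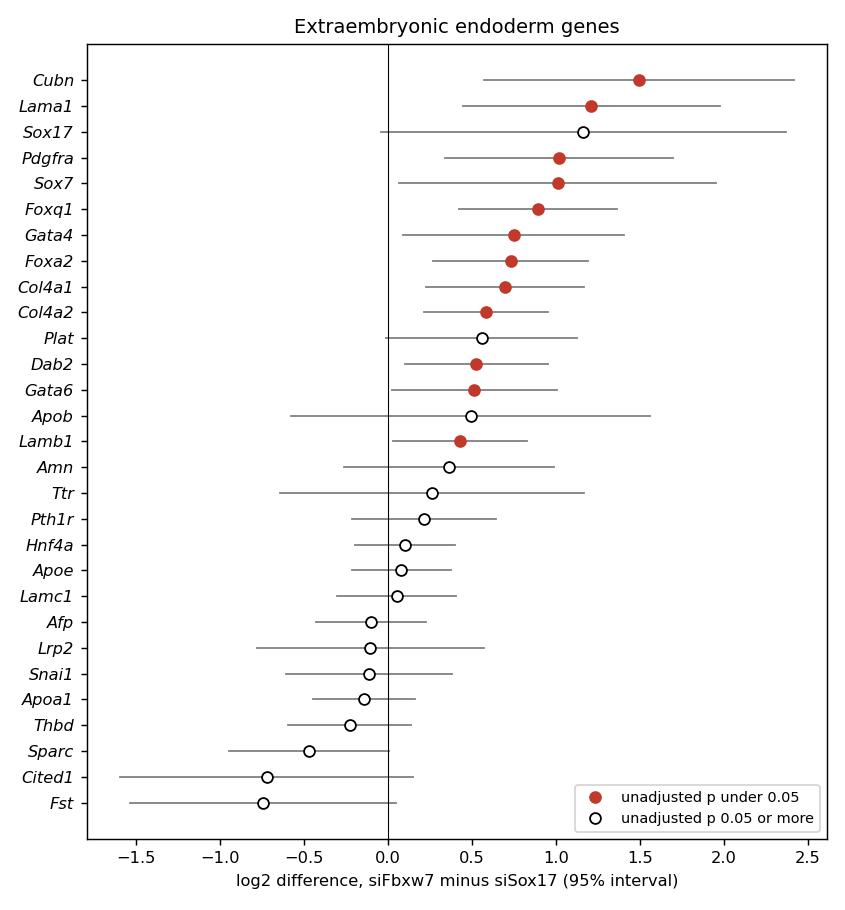
Log2 difference, siFbxw7 minus siSox17, with its 95% interval (x axis) for the 29 extraembryonic endoderm genes measured (y axis), red where the unadjusted p is under 0.05. The 12 red genes run from 0.43 (Lamb1) to 1.49 (Cubn), and 8 of the 29 estimates lie below 0.

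The definitive endoderm list, which shares Foxa2, Gata4, Gata6, Sox17 and others with the list above, had a median of 0.044. Of its 17 members, 5 had an unadjusted p under 0.05 and a higher estimate (29.4%, beside 2.59% of all genes). Of these 5, Foxa1 and Onecut1 were not shared. Foxa1, which acts beside Foxa2 in opening endoderm enhancers, read 9.39 and 8.86 against 8.52 and 8.28 (0.72 ± 0.19, unadjusted p = 0.00424). Onecut1, a liver and pancreas factor, gave 0.34 ± 0.12. Cxcr4 (−0.33 ± 0.22), Hhex (−0.21 ± 0.11) and Cer1 (0.029 ± 0.13), which mark anterior or definitive endoderm, were lower or near 0. In the SOX family, 19 of 20 estimates were above 0 with a median of 0.22; besides Sox7, Sox21 (0.31 ± 0.12) had an unadjusted p under 0.05.

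Target genes of p53 stood lower in siFbxw7. Of 25 measured, 24 had estimates below 0, the median was −0.24, and both siFbxw7 arrays lay below both siSox17 arrays at 16 (64%, beside 16.7% of all genes). Only 3 had an unadjusted p under 0.05 (12%, beside 3.0% of all genes that were lower), and 0 passed the adjusted threshold. Fas, a death receptor, read 4.997 and 5.21 in siFbxw7 and 6.52 and 5.61 in siSox17 (−0.96 ± 0.27, unadjusted p = 0.00584). Ddit4, an inhibitor of mTOR (−0.48 ± 0.16), and the growth arrest gene Gadd45a (−0.46 ± 0.17) were the other 2. The classical targets Cdkn1a (−0.37 ± 0.18), Mdm2 (−0.48 ± 0.24) and Pmaip1 (−0.61 ± 0.31) had arrays that did not overlap. Mdm2 read 11.04 and 11.49 against 11.87 and 11.62, so siFbxw7 replicate 2 lay close below siSox17 replicate 2. The count of 3 was 1 without siFbxw7 replicate 1, 9 without siFbxw7 replicate 2 and 6 without siSox17 replicate 2, and 7 when the 4 arrays were fitted alone. At 20 of the 25 genes both siSox17 arrays were above both siNonTarget arrays, beside a smaller share of all genes, 4248 of 18194. Both siFbxw7 arrays were above them at 5 of the 25, and at 3079 of all genes.

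Among the 10 lower genes of smallest p were Dusp1, Cebpd and Hmox1. Dusp1, a phosphatase that switches off MAP kinases, read 8.93 and 9.45 in siFbxw7 and 10.05 and 9.94 in siSox17 (−0.80 ± 0.16, unadjusted p = 0.000814). Cebpd, an inflammatory transcription factor that is also an FBXW7 substrate, read 7.11 and 7.27 against 7.83 and 7.83 (−0.64 ± 0.12, unadjusted p = 0.000438). Hmox1, the heme oxygenase of oxidative stress, gave −0.67 ± 0.13. None of these 3 overlapped between the groups, which was a condition for being picked. The siNonTarget arrays lay near the siFbxw7 arrays, with Cebpd at 7.08 and 7.19 and Hmox1 at 8.53 and 8.26. In the NF-kB target list the median was −0.19. Both siFbxw7 arrays lay below both siSox17 arrays at 11 of 21 members (52.4%, beside 16.7% of all genes) and above them at 3 (14.3%, beside 19.0%). An unadjusted p under 0.05 was reached by 4 of 21 members (19%, beside 3.0% of all genes), all lower in siFbxw7. They were the adhesion gene Icam1 (−0.62 ± 0.22), the early response gene Ier3 (−0.85 ± 0.32), the mitochondrial dismutase gene Sod2 (−0.27 ± 0.11) and Bcl3 (−0.28 ± 0.12). That count was 6 without siFbxw7 replicate 2, 1 without siFbxw7 replicate 1 or siSox17 replicate 2 and 0 without siSox17 replicate 1. In the interferon list, which siRNA itself can raise, the median was 0.032, with Bst2 higher (0.56 ± 0.21) and Gbp2 lower (−0.59 ± 0.24).

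Other genes with the smallest p had less in common. Pgbd5, a gene derived from a transposase, gave the smallest p of all, with 8.66 and 8.15 in siFbxw7 and 7.09 and 7.22 in siSox17 (1.25 ± 0.17, 2.38-fold, unadjusted p = 4.26e-05). Klb, the β-Klotho co-receptor of endocrine FGFs, read 7.34 and 7.89 against 6.01 and 6.53 (1.34 ± 0.21). Doc2a, a calcium sensor of vesicle release, read 5.82 and 5.69 against 5.09 and 4.95 (0.73 ± 0.11), with siNonTarget above both groups at 6.22 and 6.11. Flrt3, a membrane protein that binds FGF receptors and latrophilins, gave 0.95 ± 0.21, Tfec, a relative of the MITF factors, 1.04 ± 0.21, the cardiac myosin gene Myh6 0.72 ± 0.16 and the matrix gene Hmcn1 0.58 ± 0.12. Nudt6 (0.45 ± 0.10), the taste receptor gene Tas1r3 (0.39 ± 0.088) and Vmn1r25 (0.45 ± 0.10) completed the 10 higher genes. Lower in siFbxw7 were Msln, which encodes the surface protein mesothelin, at 5.24 and 5.65 against 6.26 and 6.36 (−0.86 ± 0.15), and the cartilage matrix gene Matn1 (−0.76 ± 0.13). Armc7 (−0.58 ± 0.10), Gtsf1, a piRNA pathway gene (−0.64 ± 0.13), Efcab9 (−0.53 ± 0.092) and Plcl1 (−0.50 ± 0.10) were lower too. Efcab9, Plcl1, Vmn1r25, Hmcn1 and Tfec lay near the dim end of the arrays.

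Genes of the retinoic acid response stood higher in siFbxw7 than in siSox17, and this rested largely on 1 siFbxw7 array. Of 26 measured, 23 had estimates above 0, the median was 0.47, and 3 had an unadjusted p under 0.05 (11.5%, beside 2.59% of all genes that were higher). Without siFbxw7 replicate 1, the array with the high actin difference, the median was 0.13 and 0 had such a p. Without siFbxw7 replicate 2 the median was 0.77 and the count was 16, while without siSox17 replicate 1 or replicate 2 the count was 0 and the median 0.33 or 0.53. With the actin difference as a covariate the median was 0.22 and the count 0. Among the arrays compared, that difference was high only on siFbxw7 replicate 1. This fit therefore cannot separate it from other traits of that array. Crabp1, which binds retinoic acid in the cytoplasm, read 9.35 and 7.68 in siFbxw7 and 7.65 and 7.71 in siSox17 (0.83 ± 0.53), so that siFbxw7 replicate 2 was level with the siSox17 group. The receptor tyrosine kinase gene Ret (7.55 and 6.11 against 5.73 and 6.13) and the hindbrain gene Hoxb5 (9.93 and 8.48 against 7.97 and 8.48) had the same shape. The 3 genes with a p under 0.05 did not overlap. They were Cyp26b1, which degrades retinoic acid, at 9.89 and 9.23 against 8.98 and 8.88 (0.63 ± 0.24), the receptor gene Rarb (0.31 ± 0.13) and Stra8 (0.27 ± 0.11). At 24 of the 26 genes siFbxw7 replicate 2 was nearer to the siSox17 mean than siFbxw7 replicate 1 was (92.3%, beside 63.9% of all genes). In the extraembryonic endoderm list this held at 12 of 29 (41.4%). Both siSox17 arrays lay below both siNonTarget arrays at 19 of the 26, beside a smaller share of all genes, 4525 of 18194. These 19 included the 3 genes with a p under 0.05. Both siFbxw7 arrays lay below the siNonTarget arrays at 6 of the 26 and above them at 1, beside 2934 and 3079 of all genes.

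**Figure D4:**
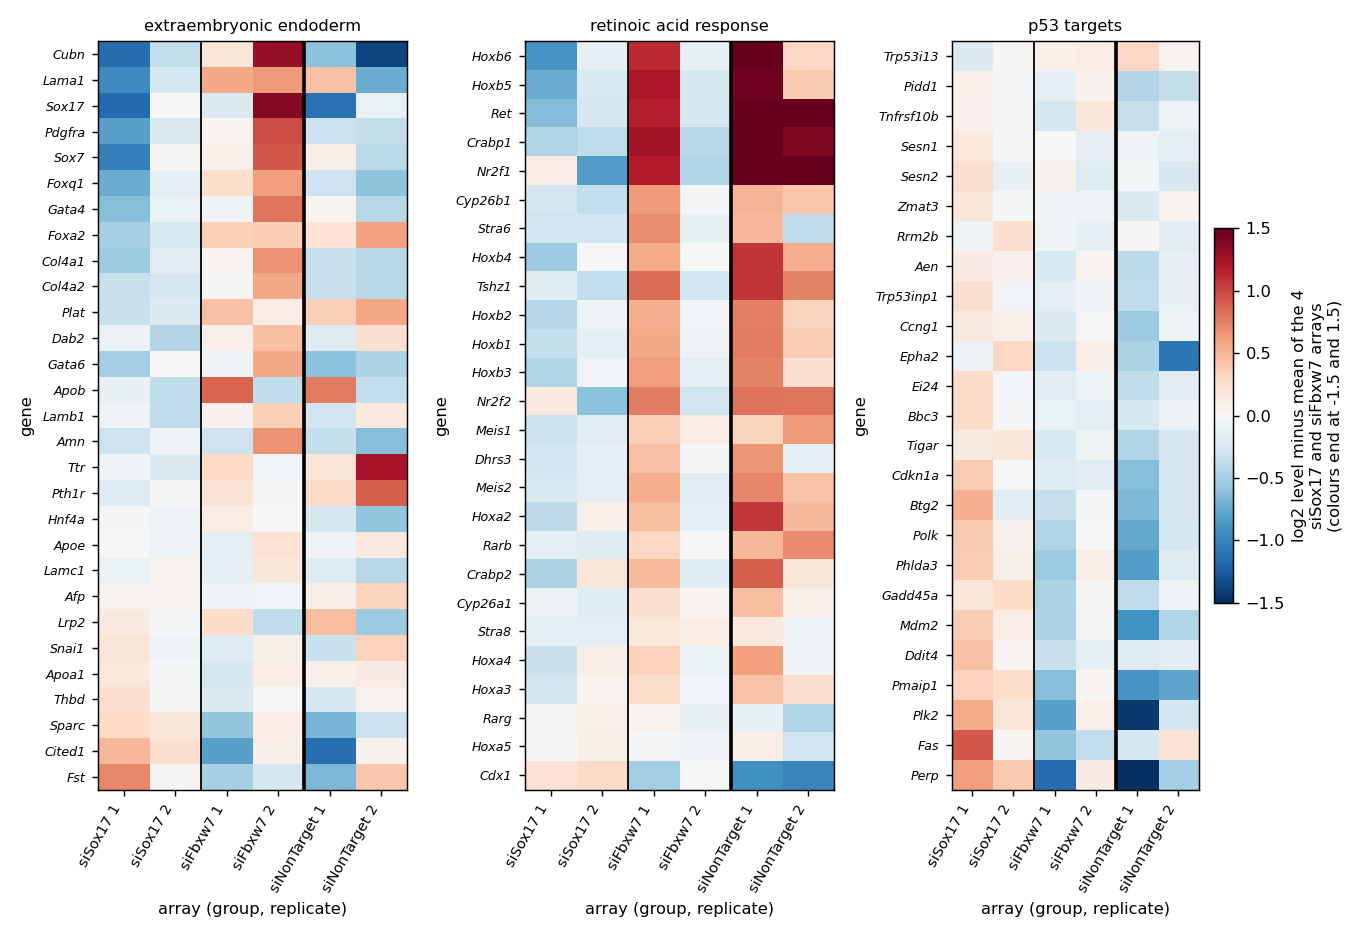
Log2 level of each gene (rows) on the siSox17, siFbxw7 and siNonTarget arrays (columns), minus the mean of the 4 siSox17 and siFbxw7 arrays, for 3 lists. In the retinoic acid list siFbxw7 replicate 2 resembles the siSox17 arrays in colour, and in the extraembryonic endoderm list it holds the strongest red at Cubn, Sox17, Pdgfra and Sox7.

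Markers of pluripotency and of other lineages gave smaller counts than the extraembryonic endoderm list, though not all gave smaller counts than the other lists above. In the naive pluripotency list, 16 of 19 estimates were below 0, the median was −0.32 (−0.14 without siFbxw7 replicate 1), and 0 had an unadjusted p under 0.05. Both siFbxw7 arrays lay below both siSox17 arrays at 9 of the 19 (47.4%, beside 16.7% of all genes) and above them at 0. Nanog read 11.42 and 11.76 in siFbxw7 and 11.96 and 12.08 in siSox17 (−0.43 ± 0.22), and Esrrb 8.80 and 9.03 against 9.23 and 9.30 (−0.35 ± 0.23), and neither gene overlapped between the groups. Pou5f1 (−0.36 ± 0.32), Klf4 (−0.36 ± 0.35) and Sox2 (0.16 ± 0.14) overlapped. In the trophectoderm list, 14 of 18 estimates were below 0, with a median of −0.40 (−0.20 without siFbxw7 replicate 1 and −0.66 without siFbxw7 replicate 2). Lgals3, a galectin, had the largest of them at −1.39 ± 0.41, with 7.18 and 8.68 against 9.22 and 9.42, and the trophoblast factors Ascl2 (−0.58 ± 0.24) and Hand1 (−0.26 ± 0.11) also had an unadjusted p under 0.05. Besides these 3 lower members, 1 higher member had such a p, Sox21 (0.31 ± 0.12). Together they were 22.2% of the list, beside 5.59% of all genes. Cdx2 gave −0.74 ± 0.41. In the neural ectoderm list 1 of 24 had such a p (Fabp7, 0.51 ± 0.22), and Pax6 (0.45 ± 0.32) and Sox1 (0.87 ± 0.58) overlapped. Without the dimmest 30% of genes the count was 0 of 18. The count of 1 was 8 higher and 2 lower without siFbxw7 replicate 2. In the neural crest list 2 of 15 members had an unadjusted p under 0.05 (13.3%, beside 3.0% of all genes), both lower. They were Ngfr (−0.51 ± 0.21) and Foxd3 (−0.53 ± 0.23). Without the dimmest 30% of genes the neural crest count was 1 of 13. The list as a whole was not lower: 8 of the 15 estimates were above 0, and the median was 0.11.

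Transcripts of FBXW7 substrates lay on both sides of 0. Of 29 measured, 15 estimates were below 0 and 14 above, with a median of −0.015. The arrays did not overlap at 9 members that were lower in siFbxw7 (31%, beside 16.7% of all genes). They did not overlap at 2 that were higher (6.9%, beside 19.0%). An unadjusted p under 0.05 was reached by 3 (10.3%, beside 3.0% of all genes), all lower in siFbxw7. They were Cebpd, the AP-1 gene Junb (−0.60 ± 0.22) and Tgif1 (−0.27 ± 0.12), a repressor of TGF-β signalling. Myc (−0.078 ± 0.16), Jun (−0.23 ± 0.17), Ccne1 (−0.10 ± 0.10) and Notch1 (0.18 ± 0.17) had intervals of −0.44 to 0.28, −0.62 to 0.16, −0.33 to 0.13 and −0.21 to 0.56. Their protein levels were not measured here. Among 23 genes of SCF ligases only Fbxw7 itself had an unadjusted p under 0.05. Nop58, a gene of ribosome assembly (−0.26 ± 0.11), was the 1 of 35 MYC targets with such a p, and their median was 0.030; of Notch targets it was 0 of 17, with a median of 0.082. Genes of sterol synthesis, whose regulators SREBF1 and SREBF2 are FBXW7 substrates, had 24 of 25 estimates above 0, with a median of 0.21. Both siFbxw7 arrays lay above both siSox17 arrays at 12 of them (48%, beside 19.0%). An unadjusted p under 0.05 was reached by 2 (8%, beside 2.59% of all genes), lanosterol synthase Lss (0.42 ± 0.16) and the desaturase Scd1 (0.48 ± 0.20). The count of 2 was 0 without siFbxw7 replicate 1, without siSox17 replicate 1 or with the actin covariate, and 6 without siFbxw7 replicate 2 or siSox17 replicate 2. With each array left out the median lay between 0.11 and 0.32. At 14 of the 25, both siSox17 arrays lay below both siNonTarget arrays, beside a smaller share of all genes, 4525 of 18194.

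In the remaining lists at most 2 members had an unadjusted p under 0.05, where the share of all genes was 5.59%. Proteasome subunits (33 genes, median −0.047), cytosolic ribosome (25, 0.028) and 2-cell-stage genes (12, 0.15) had 0 such members, as had the germline list (17, −0.19). In the germline list, though, 15 of 17 estimates were below 0. Both siFbxw7 arrays lay below both siSox17 arrays at 6 of its members (35.3%, beside 16.7% of all genes) and above them at 1 (5.88%, beside 19.0%). The mitosis list had 1 of 28 (the checkpoint kinase gene Bub1b, 0.32 ± 0.12), the G1 and S list 1 of 29 (Cdk6, −0.48 ± 0.18), and the Wnt target list 1 of 21 (Nkd2, 0.50 ± 0.17). The core pluripotency list had 1 of 14 (Lin28a, 0.37 ± 0.15), the primed epiblast list 1 of 13 (Otx2, 0.31 ± 0.12) and the fibroblast list 1 of 22 (Col6a2, 0.41 ± 0.13). Otx2 was dim, at 3.45 and 3.56 in siFbxw7 and 3.25 and 3.16 in siSox17. Without the dimmest 30% of genes the primed epiblast count was 0 of 11. In the primed epiblast list 10 of 13 estimates were above 0, with a median of 0.31 (0.14 without siFbxw7 replicate 1). Both siFbxw7 arrays lay above both siSox17 arrays at 5 of its members (38.5%, beside 19.0% of all genes). The hypoxia and glycolysis list had 1 of 29 (Pfkp, −0.45 ± 0.18) and the mesoderm list 2 of 19, Pdgfra higher and Hand1 lower. The stress list of unfolded protein and amino acid responses had 1 of 24, the transcription factor gene Atf3 (−0.56 ± 0.13).

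**Figure D5:**
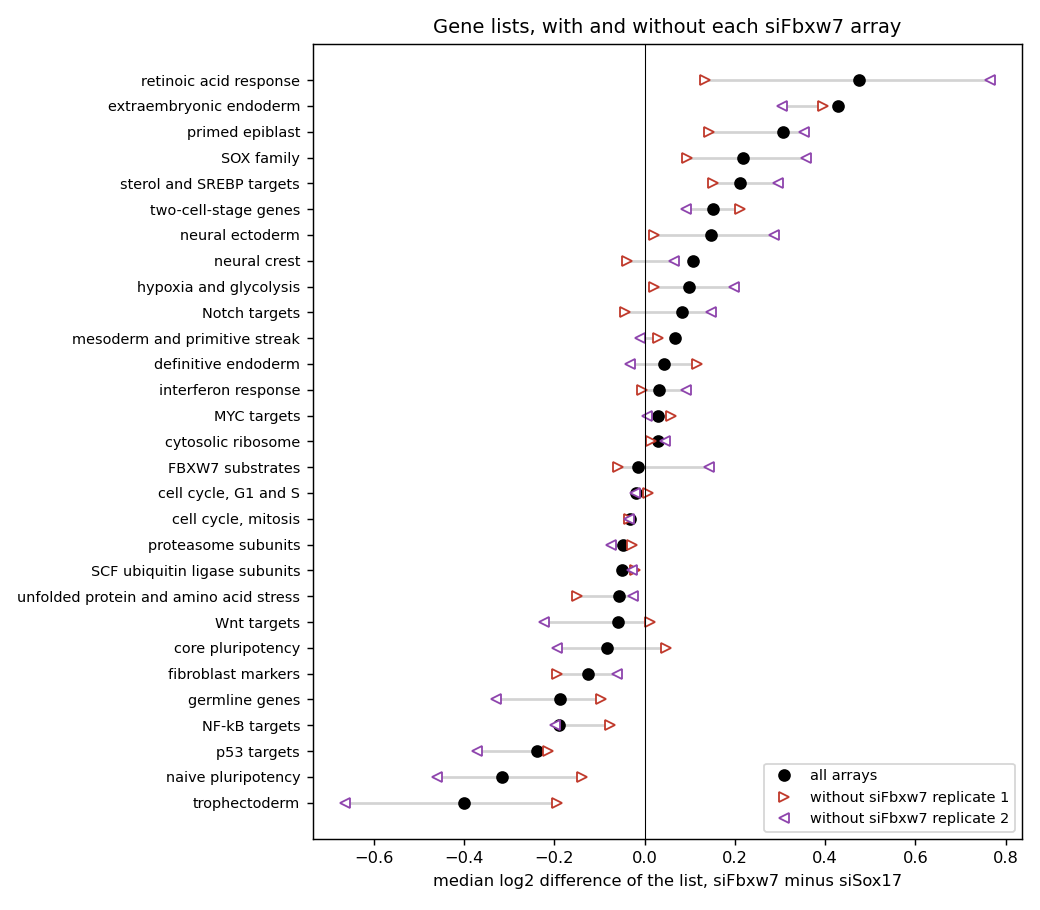
Median log2 difference, siFbxw7 minus siSox17 (x axis), of each gene list (y axis) over all arrays (black) and without siFbxw7 replicate 1 (red) or replicate 2 (purple). The retinoic acid list moves from 0.13 to 0.77 between the open symbols, and the extraembryonic endoderm list from 0.39 to 0.30.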

How the data were processed

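The labels give 5 siRNA groups of 2 Affymetrix arrays, each array with 45101 probe sets. The deposited values are RMA intensities, per the submitters' processing notes. The RMA version is not given in the sources used here. Since the values reach from 5.05 up to 31606.3, they are linear, and log2 was taken first. RMA gives all arrays like distributions, which hides any shift common to most genes. Per the labels' protocols, RNA was amplified to cDNA before labelling. By the platform annotation, 34958 probe sets had 1 gene symbol, 932 several and 9211 are unnamed here. Each of 18194 genes was read through its probe set with the highest mean, with no filter on dim genes.

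One model of all 10 arrays by group was fitted with limma 3.58.1 in R 4.3.3 (lmFit, eBayes; 5 residual and 3.98 prior degrees of freedom), with Benjamini-Hochberg adjustment over all genes, a threshold of 0.05 and two-sided tests. It was tested on simulated data. Lists (29, with 654 of 706 entries measured) are given by counts and medians, without a test. Members and lists were chosen with earlier results of these data known. Named genes are the targets, the 10 non-overlapping genes of smallest p in each direction (no gene passed), up to 4 members of smallest p per list and a fixed panel of lineage genes, without clone and Gm or Rik names. Other members of the extraembryonic endoderm, definitive endoderm, p53 and retinoic acid lists, and the genes under other observations, were named after their values were seen. Alternatives were a replicate block, other sets of arrays, normalizations, priors, filters and probe set rules, and each array left out. Figures were drawn with matplotlib 3.10.9.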

Additional observations from a re-analysis of the deposited data

How the results depend on the processing

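In each of the alternatives run, 0 genes were called, in either direction, and the smallest adjusted p in any of them was 0.121 (limma, without siFbxw7 replicate 2). Each fit that leaves out an array assumes that the lone array of its group varies like the other groups. Deviations of same-numbered siFbxw7 and siSox17 arrays from their group means correlated at 0.033. For siFbxw7 with siNonTarget this was 0.42, and with siRnf31 it was −0.26. Whether a replicate number marks a shared culture or day is thus not known. With a replicate block 0 genes were called, 994 had an unadjusted p under 0.05, and the extraembryonic endoderm count was 14. Following the counts at an unadjusted p under 0.05 through the alternatives was chosen after seeing the data. Leaving out each array gave 467 to 2350 genes with an unadjusted p under 0.05, 256 to 1147 higher in siFbxw7 and 211 to 1203 lower. Members with such a p numbered 6 to 14 (extraembryonic endoderm), 0 to 16 (retinoic acid), 1 to 9 (p53) and 0 to 6 (NF-kB). Without the dimmest 50% of genes there were 470 genes with an unadjusted p under 0.05, 161 higher and 309 lower, and without the dimmest 30% there were 296 higher; fewer genes were tested. The p53 count was 7 with the 4 arrays alone and the retinoic acid count 0 with the actin covariate; the causes were not tested. Of 143 genes followed through the alternatives, 7 changed sign in any. With an array left out, Klf4 ran from −0.75 to 0.029, Myc from −0.27 to 0.11, Pax6 from −0.062 to 0.96, Rpl37 from −0.0012 to 0.25, Socs3 from −0.19 to 0.084, Notch1 from −0.045 to 0.40 and Rnf31 from −0.086 to 0.17. With the actin covariate Notch1 was −0.017 and Rnf31 was −0.070. Of the list medians under alternatives, 390 stayed within the spread between replicates and 16 moved beyond it. The replicate block, the 4 arrays alone, the fit without the siSocs3 group and the other prior leave every estimate as it was. Those alternatives could thus neither move a median nor change a sign. The spread is wide where replicates differ. The retinoic acid median of 0.13 without siFbxw7 replicate 1, against 0.47 with all arrays, counted as within it. The number of arrays limits the precision, and dim genes lie near background.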

Other observations

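The largest estimates were not those with the smallest p, and the following genes were chosen after their values were seen. Srgn, a proteoglycan of secretory granules, read 8.43 and 9.53 in siFbxw7 and 6.55 and 7.68 in siSox17 (1.87 ± 0.47, 3.66-fold). Nostrin, a regulator of endothelial nitric oxide synthase traffic, read 6.54 and 7.17 against 4.45 and 6.01 (1.62 ± 0.46), and Gpr50, an orphan receptor, 7.60 and 7.87 against 5.44 and 7.01 (1.51 ± 0.45). In the other direction, the small heat shock protein gene Cryab read 8.05 and 10.07 against 11.17 and 10.54 (−1.79 ± 0.70), the calcium-binding protein gene S100a6 7.22 and 8.84 against 10.06 and 9.40 (−1.70 ± 0.60), and Sfn, the 14-3-3 protein of epithelia and a p53 target outside the list used, 6.002 and 7.77 against 8.50 and 8.45 (−1.59 ± 0.55). In all 6 genes the groups did not overlap. For Cryab, S100a6 and Sfn siFbxw7 replicate 2 was nearer than replicate 1 to the siSox17 arrays. The siNonTarget arrays read 7.29 and 9.19 for Cryab, 7.16 and 8.94 for S100a6 and 6.01 and 7.38 for Sfn, below both siSox17 arrays.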
